A study of Homo sapiens with 96 samples.

Results

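HaCaT keratinocytes carrying a mutant PIK3CA construct were compared with the control line HaCaT-Mock, both after transfection with a scramble siRNA and with no drug or vehicle named in the labels. The comparison holds 6 of the 96 arrays of the series, chosen by their labels for line, siRNA and treatment: 3 HaCaT-PIK3CA arrays and 3 HaCaT-Mock arrays. Each line had 2 arrays in array batch J and 1 in batch M, so batch was balanced between the lines. HaCaT is a spontaneously immortalized human keratinocyte line. The constructs were delivered by a lentiviral vector with a CMV promoter and kept by puromycin selection. No source used here says what vector HaCaT-Mock received, so effects of transduction and selection cannot be told apart from those of the construct. The methods describe siRNA transfection with a lipid reagent. No source describes the lines as single clones or the arrays of a line as separate cultures, so the p-values cover no more than the variation among these arrays, and that variation may be technical. The same 2 lines on siEGFR arrays (3 and 3), on PBS arrays (3 and 3) and on arrays of EGFR inhibitors, and the HaCaT-HRAS and HaCaT-EGFR lines on scramble arrays (3 each), were used for comparison. Per the study, HaCaT-HRAS carries an activating HRAS mutant and HaCaT-EGFR overexpresses wild-type EGFR.

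PIK3CA encodes the catalytic p110-alpha subunit of a class I phosphatidylinositol kinase (PI3K). Downstream of receptor tyrosine kinases and RAS it makes the membrane lipid that recruits and activates the kinase AKT. AKT in turn restrains FOXO transcription factors, activates the mTOR kinase complex and so favors protein, lipid and sterol synthesis. Much of this signaling runs through phosphorylation, which an expression array does not measure. Activating mutations of PIK3CA occur in squamous carcinomas of the head and neck. In keratinocytes the PI3K pathway acts beside the RAS and MAPK pathway under the epidermal growth factor receptor, EGFR.

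Expression was given as log2 values of an Affymetrix array for 19775 named genes, each represented by its brightest probe set. The level of the construct could not be checked, since no probe set carried the name PIK3CA here. TP63 was likewise not analysed here. Correlations over genes were 0.990 to 0.994 among HaCaT-PIK3CA arrays and 0.989 to 0.996 among HaCaT-Mock arrays, and 0.989 to 0.997 between the lines. The 3′ over 5′ difference of ACTB, a sign of RNA integrity, was 0.45 to 1.34 in HaCaT-PIK3CA and 0.48 to 1.24 in HaCaT-Mock, lowest on the batch M array of each line. Estimated array weights, where used as an alternative, ran from 0.62 to 2.60 in HaCaT-PIK3CA and from 0.82 to 1.89 in HaCaT-Mock, highest in batch M. All 13 measured keratinocyte markers of 18 listed were above the median gene, with log2 levels of 8.39 to 13.09 in HaCaT-PIK3CA and 8.46 to 13.13 in HaCaT-Mock. Of 20 listed markers of fibroblasts, endothelium, blood and melanocytes, 17 were measured and 3 were above the median gene, over a range of 3.75 to 7.32 in HaCaT-PIK3CA and 3.60 to 7.32 in HaCaT-Mock. None of these markers passed the test between the lines.

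The PIK3CA construct was accompanied by few and small differences in expression. In the limma fit over all 89 construct arrays, 6 of 19775 genes passed a Benjamini-Hochberg adjusted p of 0.05, which is 0.0303% of the genes tested. ADAMTS12, LCP1, LAMB1 and LINC00592 were higher in HaCaT-PIK3CA and MPPED2 and COPZ2 were lower. No changed gene differed by a log2 difference of 1 or more. The median log2 difference over all genes was 0.01, and 90% of the genes lay between -0.18 and 0.21. Only 38 genes differed by more than 0.5. At an unadjusted p of 0.05, 1098 genes passed in this fit.

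A second fit took the same differences with the spread of the 24 scramble and siEGFR arrays of the 4 construct lines alone, and called 60 genes (0.303% of those tested), 31 higher and 29 lower. In a fit of the 6 scramble arrays alone no gene passed, with 1161 genes at an unadjusted p of 0.05. With array weights 143 genes passed. In batch J alone, and without a batch term, ADAMTS12 was the only gene to pass. All 3 HaCaT-PIK3CA arrays were above all 3 HaCaT-Mock arrays for 746 genes (3.77%) and below them for 553 genes (2.8%). With 3 arrays in each line, a two-sided exact permutation test of a single gene cannot give a p below 0.1.

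ADAMTS12, a secreted metalloprotease that cleaves cartilage matrix proteins, had log2 levels of 7.51, 7.32 and 7.50 in HaCaT-PIK3CA and 6.48, 6.55 and 6.79 in HaCaT-Mock. The lowest HaCaT-PIK3CA array lay above the highest HaCaT-Mock array. The difference was 0.84 with a standard error (SE) of 0.09, a fold of 1.79 (limma over 89 arrays, adjusted p = 1.01e-07). ADAMTS12 passed whichever array was left out, and a dimmer probe set of it differed by 0.30.

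LCP1 encodes plastin-2, an actin-bundling protein best known from white blood cells. Its log2 levels were 7.59, 7.38 and 7.81 in HaCaT-PIK3CA and 6.58, 6.55 and 7.03 in HaCaT-Mock. The arrays of the lines did not overlap, and the batch M array was the highest of each line. The difference was 0.88 with an SE of 0.17, a fold of 1.83 (limma over 89 arrays, adjusted p = 0.0134). The call was lost without batch J array 1 of HaCaT-PIK3CA and without any single HaCaT-Mock array, with the difference still positive each time.

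LAMB1 encodes the beta-1 chain of laminin, a basement membrane protein. It had log2 levels of 8.60, 8.46 and 7.76 in HaCaT-PIK3CA and 8.03, 7.81 and 6.92 in HaCaT-Mock. The lines overlapped because the batch M array was the lowest in each. Within batch, HaCaT-PIK3CA was higher than HaCaT-Mock by 0.61 in batch J and 0.84 in batch M. The difference over all 6 arrays was 0.69 with an SE of 0.13 (limma over 89 arrays, adjusted p = 0.0126), a fold of 1.61. Another probe set of LAMB1 gave 0.47, and with the study's own rule for choosing a probe set LAMB1 no longer passed. It also failed to pass without batch J array 1 of HaCaT-PIK3CA, without batch J array 2 of HaCaT-Mock and without the batch M array of HaCaT-Mock.

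LINC00592, a long non-coding RNA, had log2 levels of 8.16, 8.27 and 8.02 in HaCaT-PIK3CA and 7.68, 7.69 and 7.50 in HaCaT-Mock. The groups were apart, and arrays within each line differed by less than the gap between the line means. The log2 difference was 0.52 with an SE of 0.10, a fold of 1.44 (limma over 89 arrays, adjusted p = 0.016). The call was lost whichever of the 6 arrays was left out, with the difference positive each time.

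MPPED2 encodes a metallophosphoesterase. It had log2 levels of 4.74, 5.02 and 4.81 in HaCaT-PIK3CA and 6.05, 5.77 and 5.56 in HaCaT-Mock. All 3 HaCaT-PIK3CA arrays were below all HaCaT-Mock arrays. The difference was -0.94 with an SE of 0.17, a fold of 0.523 (limma over 89 arrays, adjusted p = 0.00986). This gene lies below the median level of all genes, 6.06, and was named after its values were seen. The call was lost without batch J array 1 of either line, with the difference negative each time. Another, dimmer probe set differed by -0.29.

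COPZ2, a subunit of the COPI coat that carries vesicles from the Golgi to the endoplasmic reticulum, had log2 levels of 6.98, 6.62 and 7.07 in HaCaT-PIK3CA and 7.23, 7.27 and 7.34 in HaCaT-Mock. The HaCaT-PIK3CA arrays were the more scattered, and their highest stayed under the lowest HaCaT-Mock array. The difference was -0.39 with an SE of 0.08, a fold of 0.765 (limma over 89 arrays, adjusted p = 0.018). COPZ2 did not pass after quantile normalization, without HaCaT-PIK3CA array 2 or without any single HaCaT-Mock array, and its dimmer probe set differed by -0.08.

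**Figure D1:**
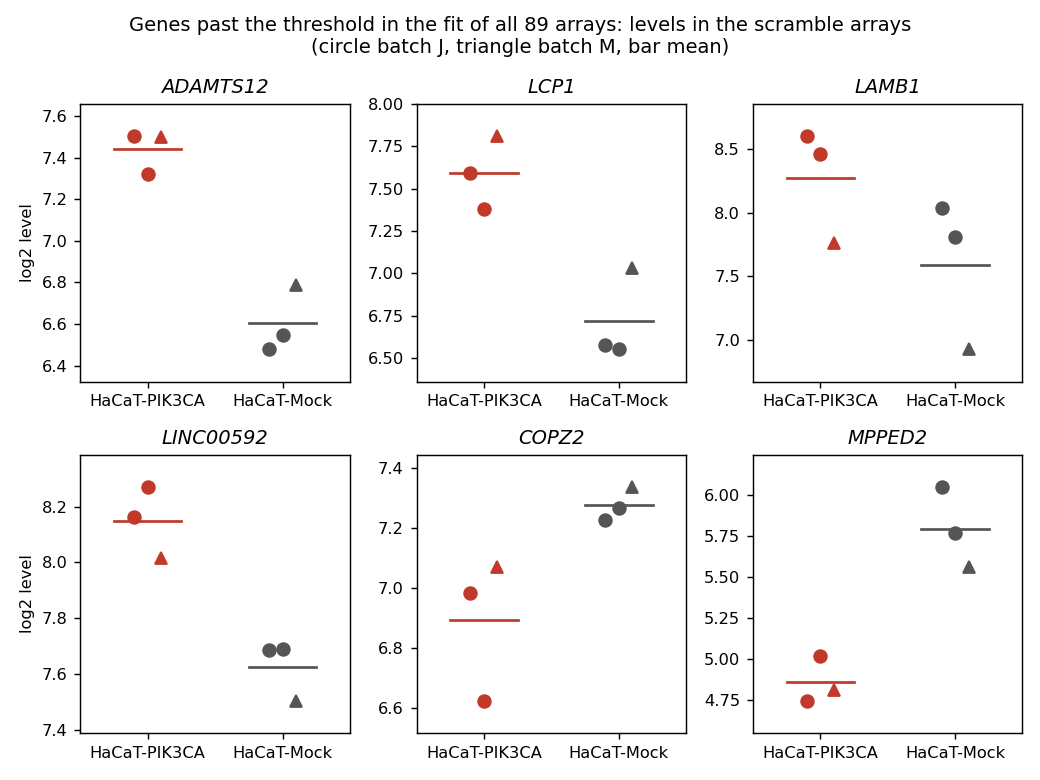
Log2 expression of the 6 changed genes on each scramble array (points), HaCaT-PIK3CA left and HaCaT-Mock right, with bars at the line means and batches J and M marked. The arrays of the lines are separate for every gene except LAMB1, whose batch M arrays are the lowest of each line.

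The promoters of 4 changed protein-coding genes are shown as the windows in which motifs of transcription factors tied to these pathways were searched. They are the RefSeq sequences from 250 bases before to 50 bases after the annotated start, on build GRCh38.p14 and on the minus strand: ADAMTS12 at chr5:33891941-33892240, LAMB1 at chr7:108003112-108003411, LCP1 at chr13:46182128-46182427 and COPZ2 at chr17:48037748-48038047. Capitals mark matches to loose AP-1 letters (TGANTCA), the AP-2 motif (GCCNNNGGC) or the FOXO motif (TGTTTAC), with N any base and both strands searched.
ADAMTS12: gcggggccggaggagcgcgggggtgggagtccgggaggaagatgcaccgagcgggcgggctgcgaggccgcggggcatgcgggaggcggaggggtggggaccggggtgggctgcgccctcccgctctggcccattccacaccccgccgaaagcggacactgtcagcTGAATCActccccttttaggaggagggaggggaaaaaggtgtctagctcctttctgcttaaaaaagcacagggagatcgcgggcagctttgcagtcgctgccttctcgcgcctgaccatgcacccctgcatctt
LAMB1: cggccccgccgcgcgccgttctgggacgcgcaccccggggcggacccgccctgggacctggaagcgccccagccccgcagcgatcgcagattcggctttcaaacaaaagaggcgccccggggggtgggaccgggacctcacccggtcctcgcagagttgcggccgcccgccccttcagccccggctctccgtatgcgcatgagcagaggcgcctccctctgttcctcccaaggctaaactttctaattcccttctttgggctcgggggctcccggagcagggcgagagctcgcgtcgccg
LCP1: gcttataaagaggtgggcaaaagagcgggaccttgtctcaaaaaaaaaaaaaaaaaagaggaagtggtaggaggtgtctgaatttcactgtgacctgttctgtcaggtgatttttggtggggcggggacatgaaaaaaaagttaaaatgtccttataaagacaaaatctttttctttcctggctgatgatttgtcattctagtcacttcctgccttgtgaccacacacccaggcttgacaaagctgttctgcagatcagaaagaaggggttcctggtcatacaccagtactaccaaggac
COPZ2: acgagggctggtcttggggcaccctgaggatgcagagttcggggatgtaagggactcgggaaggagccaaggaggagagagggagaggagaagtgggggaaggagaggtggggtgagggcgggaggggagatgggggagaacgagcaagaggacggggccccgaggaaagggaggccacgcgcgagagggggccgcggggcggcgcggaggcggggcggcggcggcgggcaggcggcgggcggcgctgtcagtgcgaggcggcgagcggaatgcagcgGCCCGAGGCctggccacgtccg
MPPED2 is not printed because it has 5 start entries, of which 2 held an AP-2 match and 1 a FOXO match. The ADAMTS12 window held 1 match to the loose AP-1 letters, TGAATCA, with A rather than C or G as the open base. The COPZ2 window held 1 AP-2 match, and the LAMB1 and LCP1 windows held none of the motifs. Over 35116 promoters of the same length, 7.71% held the AP-1 letters, 23.2% the AP-2 letters and 3.42% the FOXO letters. Of the 60 genes called in the 24-array fit, 54 had a promoter entry, of which 1 held the AP-1 letters (1.85%), 15 the AP-2 letters (27.8%) and 1 the FOXO letters (1.85%). Each of the 54 was read on its first start entry alone, while the 35116 count every entry, so the shares are in unlike units. A match is a description of the letters and does not show binding.

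The same contrast was read on the siEGFR arrays, which are other arrays of the same 2 lines in the same batches. EGFR itself had log2 levels of 8.81, 8.66 and 7.95 in HaCaT-PIK3CA and 8.72, 8.90 and 7.98 in HaCaT-Mock under siEGFR. Under scramble it had 10.52, 10.62 and 9.96 in HaCaT-PIK3CA and 10.95, 10.78 and 10.20 in HaCaT-Mock. Its transcript was thus lower on every siEGFR array than on every scramble array. The difference between the lines in EGFR was -0.28 under scramble and -0.06 under siEGFR (limma over 24 arrays, adjusted p = 0.117 under scramble).

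Under siEGFR, 9 genes passed in the 89-array fit (0.0455%), and 4 of the 6 genes called under scramble were among them. ADAMTS12 had 7.03, 7.28 and 7.37 in HaCaT-PIK3CA and 6.53, 6.31 and 6.65 in HaCaT-Mock, a difference of 0.73 (limma, adjusted p = 6.5e-06). LCP1 had 7.42, 7.35 and 7.79 in HaCaT-PIK3CA and 6.58, 6.50 and 6.88 in HaCaT-Mock, a difference of 0.87 (limma, adjusted p = 0.00926). Both genes were again without overlap between the lines. LAMB1 differed by 0.63 (limma, adjusted p = 0.0254) and LINC00592 by 0.60 (limma, adjusted p = 0.00162). COPZ2 and MPPED2 did not pass under siEGFR. COPZ2 differed by -0.31 (limma, adjusted p = 0.141). MPPED2 had 5.65, 5.74 and 5.40 in HaCaT-PIK3CA and 6.42, 6.25 and 6.01 in HaCaT-Mock, a difference of -0.63 (limma, adjusted p = 0.302).

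In the 24-array fit, 63 genes passed under siEGFR (0.319%). All 60 genes called under scramble had the same direction under siEGFR, against 60.5% of all genes. Of them 35 passed in both conditions, which is 58.3% of the scramble genes and 55.6% of the siEGFR genes. The siEGFR arrays enter the spread of this fit, and whether they share cultures with the scramble arrays is not stated. The median size of the 60 differences was 0.37 under scramble and 0.33 under siEGFR. The test of the difference between the siRNA conditions called 0 genes in either fit, with 453 genes at an unadjusted p of 0.05 over 89 arrays and 645 over 24 arrays.

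**Figure D2:**
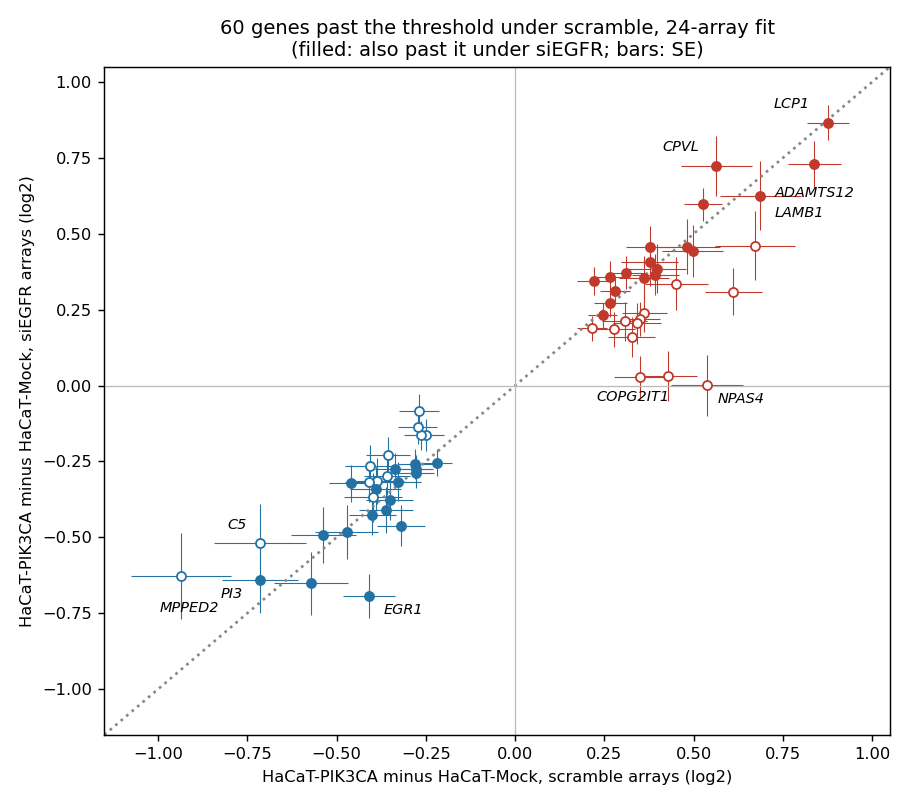
Log2 difference HaCaT-PIK3CA minus HaCaT-Mock of each of the 60 genes called in the 24-array fit, under scramble siRNA (x axis) and under siEGFR (y axis), 3 arrays per line and condition. All 60 points have the same sign on both axes, and NPAS4 lies near 0 under siEGFR.

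The 6 genes were followed through the other treatments of the 2 lines given alone, where batches were not balanced between them (PBS arrays: J, J and M in HaCaT-PIK3CA and E, J and J in HaCaT-Mock). Across all genes, the construct contrast called 0.162% under PBS, 19.1% under 10 nM afatinib, 2.46% under 100 nM gefitinib and 3.09% under 100 nM cetuximab (limma over 89 arrays). The HaCaT-PIK3CA afatinib arrays were uneven, with a standard deviation of 0.99 for LCP1 against 0.22 under scramble. Whether this bears on the afatinib share was not tested. Under PBS, which called 32 genes, LCP1 differed by 0.98, ADAMTS12 by 0.62, LINC00592 by 0.52, COPZ2 by -0.36 and MPPED2 by -1.38, and each of these passed. LAMB1 differed by 0.44 under PBS and did not pass (limma, adjusted p = 0.183). ADAMTS12, COPZ2 and MPPED2 showed no overlap between the lines in 6 of 6 conditions, and LCP1 and LINC00592 in 5 of 6, with overlap under afatinib. LAMB1 overlapped in all 6. Scramble, on which the genes were called, is 1 of these 6, and the share of all genes without overlap is given here for scramble alone. The afatinib overlap came from batch J array 1 of HaCaT-PIK3CA. There LCP1 was 6.49, beside 7.95 and 8.36 on the other arrays, and LINC00592 was 7.76, beside 8.68 and 8.395.

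Scramble-transfected arrays that also carried a PBS or inhibitor label were too few for a test, with 2 HaCaT-PIK3CA arrays (batches J and E) and 1 HaCaT-Mock array (batch J) under PBS. There the order of LCP1 was the opposite, with 7.38 and 7.52 in HaCaT-PIK3CA and 7.96 in HaCaT-Mock. LINC00592 was the opposite as well, with 8.35 and 8.43 in HaCaT-PIK3CA and 8.57 in HaCaT-Mock. Both orders rest on that 1 HaCaT-Mock array, whose LCP1 and LINC00592 levels were the highest of all HaCaT-Mock arrays. The next highest were 7.49 for LCP1 and 8.075 for LINC00592, both under cetuximab. The LAMB1 levels of 8.44 and 8.64 in HaCaT-PIK3CA lay on either side of 8.50 in HaCaT-Mock. ADAMTS12, COPZ2 and MPPED2 kept their order on these arrays. MPPED2 had 5.37 and 5.66 in HaCaT-PIK3CA and 7.63 in HaCaT-Mock, where the PBS arrays of HaCaT-Mock had 5.80 to 6.51. Under scramble with afatinib, gefitinib or cetuximab each line had 1 array, in batch E for HaCaT-PIK3CA and batch J for HaCaT-Mock, so line and batch cannot be told apart.

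MPPED2 was the gene whose difference varied most in size among these conditions. The difference was -1.95 under afatinib, -1.41 under gefitinib and -0.97 under cetuximab, against -0.94 under scramble. Its mean level was higher under the inhibitors in both lines, which was not tested here: the afatinib mean was 7.14 in HaCaT-PIK3CA and 9.15 in HaCaT-Mock. The PBS mean was 4.76 in HaCaT-PIK3CA and 6.27 in HaCaT-Mock, and the scramble mean was 4.86 in HaCaT-PIK3CA and 5.79 in HaCaT-Mock (n = 3 for each mean). The afatinib and PBS arrays carry no siRNA label, unlike the scramble arrays.

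**Figure D3:**
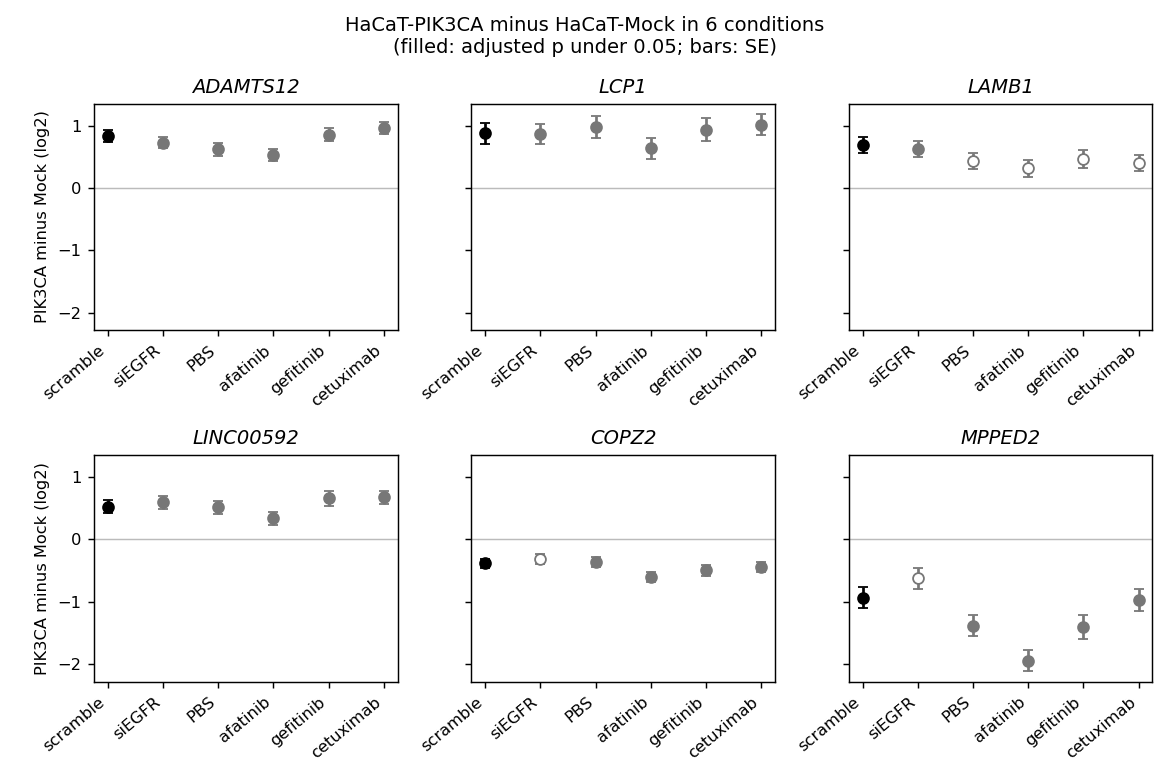
Log2 difference HaCaT-PIK3CA minus HaCaT-Mock (points) with its standard error (bars) for the 6 genes under scramble, siEGFR, PBS, afatinib, gefitinib and cetuximab, limma over 89 arrays. Every difference keeps its sign in these 6 conditions (scramble arrays with a further PBS or inhibitor label are not drawn), and the MPPED2 differences are the most spread.

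The scramble arrays of HaCaT-HRAS and HaCaT-EGFR placed these genes among the other constructs. HRAS is the RAS protein that feeds both MAPK and PI3K signaling. HaCaT-PIK3CA differed from HaCaT-HRAS in 2432 genes (12.3%) and from HaCaT-EGFR in 723 genes (3.66%, limma over 89 arrays). The contrasts of HaCaT-PIK3CA, HaCaT-HRAS and HaCaT-EGFR against HaCaT-Mock share the HaCaT-Mock arrays, so their values are only set side by side.

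LCP1 differed from HaCaT-Mock by 0.88 in HaCaT-PIK3CA, 2.87 in HaCaT-HRAS and 0.30 in HaCaT-EGFR. Set directly against each other, HaCaT-PIK3CA was lower than HaCaT-HRAS by a log2 difference of -2.00 (limma, adjusted p = 3.52e-14) and higher than HaCaT-EGFR by 0.57 (limma, adjusted p = 0.0355). ADAMTS12 differed from HaCaT-Mock by 0.84 in HaCaT-PIK3CA, 1.07 in HaCaT-HRAS and 0.04 in HaCaT-EGFR. ADAMTS12 was the gene of the 6 for which HaCaT-PIK3CA did not pass against HaCaT-HRAS over 89 arrays, with a difference of -0.23 (limma, adjusted p = 0.11, and 0.0372 over 24 arrays). Against HaCaT-EGFR it was higher by 0.79 (limma, adjusted p = 2.68e-08).

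LAMB1 was lower in HaCaT-PIK3CA than in HaCaT-HRAS, with a difference of -0.52 (limma, adjusted p = 0.00276), and higher than in HaCaT-EGFR by 0.61 (limma, adjusted p = 0.00149). LINC00592 was lower than in HaCaT-HRAS, with a difference of -0.90 (limma, adjusted p = 8.14e-10), and higher than in HaCaT-EGFR by 1.58 (limma, adjusted p = 6.18e-17). In HaCaT-EGFR its mean was 6.57, under the HaCaT-Mock mean of 7.63. The lower genes had the opposite order. COPZ2 was higher in HaCaT-PIK3CA than in HaCaT-HRAS by 0.52 and MPPED2 by 1.45 (limma, adjusted p = 6.37e-07 and 1.74e-09). Against HaCaT-EGFR, COPZ2 differed by -0.50 and MPPED2 by -1.46 (limma, adjusted p = 6.64e-06 and 1.2e-08). For all 6 genes the HaCaT-PIK3CA mean lay between the HaCaT-HRAS and HaCaT-Mock means. The 6 were chosen by their difference from these HaCaT-Mock arrays, and the share of all genes with this order was not computed. It did not hold for every gene called in the 24-array fit. TOX2 had means of 5.88 in HaCaT-PIK3CA, 5.70 in HaCaT-HRAS and 5.21 in HaCaT-Mock.

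**Figure D4:**
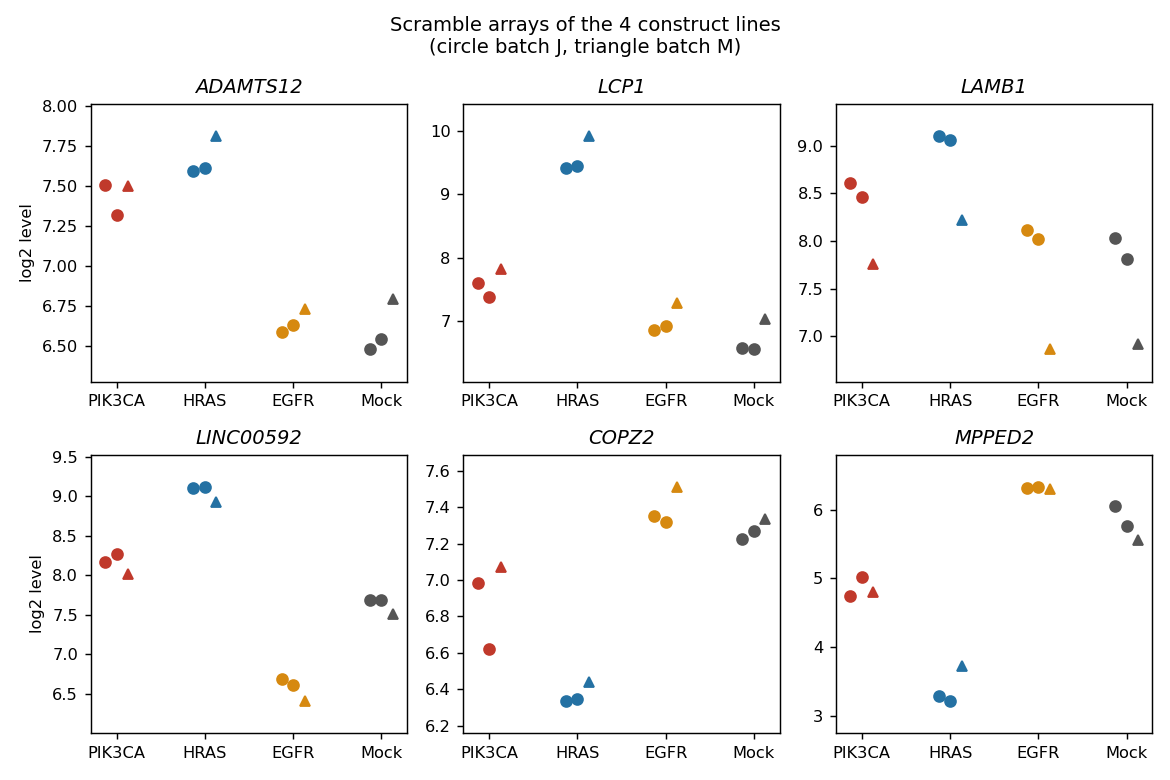
Log2 expression of the 6 genes on the scramble arrays of HaCaT-PIK3CA, HaCaT-HRAS, HaCaT-EGFR and HaCaT-Mock (points, n = 3 per line) with circles for batch J and triangles for batch M. For each gene the HaCaT-PIK3CA mean lies between those of HaCaT-HRAS and HaCaT-Mock, and the genes were chosen by their difference from HaCaT-Mock on these arrays.

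The wider set of 60 genes came from the 24-array fit, and the genes named from it, other than list members, were chosen after their values were seen. Their differences ran from 0.22 to 0.88 among the 31 higher genes and from -0.22 to -0.94 among the 29 lower ones, and 47 of the 60 were under 0.5 in size. All 60 had the same direction within batch J and within batch M. The lines did not overlap for 44 of the 60, beside 3.77% of all genes above and 2.8% below. The genes were called on these same arrays, so both counts follow largely from the call. Under PBS, 54 had the same direction, and the share of all genes that did was not computed. The count fell to between 9 and 26 when 1 of the 6 arrays was left out, lowest without HaCaT-Mock array 1, so membership of single genes rests on few arrays. Several genes named below differed in the same direction in HaCaT-EGFR, set against the same HaCaT-Mock arrays. Some lay under the median gene level of 6.06 in both lines, among them PLA2G4A, TOX2, IKZF2 and NPAS4.

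PLA2G4A, the phospholipase that releases arachidonic acid, had log2 levels of 6.03, 6.16 and 5.50 in HaCaT-PIK3CA and 5.52, 5.42 and 4.91 in HaCaT-Mock. The difference was 0.61 (limma over 24 arrays, adjusted p = 0.00155), and the batch M arrays were the lowest of each line. Under siEGFR the difference was 0.31 and did not pass (limma over 24 arrays, adjusted p = 0.141). PTGES, which makes prostaglandin E from that pathway, was higher by 0.36 with levels of 7.96, 8.02 and 8.05 in HaCaT-PIK3CA and 7.58, 7.71 and 7.66 in HaCaT-Mock (limma over 24 arrays, adjusted p = 0.0277). PTGES did not overlap between the lines under scramble, and differed by -0.03 under PBS. In HaCaT-EGFR, PLA2G4A differed from HaCaT-Mock under scramble by 0.48 and PTGES by -0.26.

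ASNS, asparagine synthetase and a target of the stress factor ATF4, had 8.13, 8.20 and 8.01 in HaCaT-PIK3CA and 7.82, 7.79 and 7.59 in HaCaT-Mock, a difference of 0.38 (limma over 24 arrays, adjusted p = 0.0162). ASS1, argininosuccinate synthase of arginine synthesis, was higher by 0.31 and CREB3L2, a transcription factor held in the endoplasmic reticulum, by 0.28. ASNS and ASS1 were far from passing in the 89-array fit, where their SEs were 0.33 and 0.32, against 0.07 and 0.05 in the 24-array fit. Both passed again under siEGFR in the 24-array fit, with differences of 0.46 and 0.37. In HaCaT-EGFR, ASNS differed from HaCaT-Mock under scramble by 0.35, ASS1 by -0.09 and CREB3L2 by 0.02.

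FBN2, the microfibril protein fibrillin-2, was higher by 0.39 and CCDC80, a secreted matrix protein, by 0.50. PTPRM, a receptor tyrosine phosphatase at cell contacts, was higher by 0.48, GPRC5B, an orphan receptor, by 0.38 and TSPAN13, a tetraspanin, by 0.27. All 5 passed under siEGFR as well in the 24-array fit, and none did over 89 arrays. In HaCaT-EGFR, CCDC80 differed from HaCaT-Mock under scramble by 0.49, PTPRM by 0.46 and TSPAN13 by 0.13. FBN2 differed there by -0.58 and GPRC5B by -1.18. The transcription factors TOX2, IKZF2 and ELF3 were higher by 0.67, 0.45 and 0.36, and did not pass under siEGFR. Under PBS they differed by 0.02, 0.14 and 0.06. HaCaT-EGFR differed from HaCaT-Mock in them by -0.03, 0.87 and 0.49 under scramble. NPAS4, an activity-induced transcription factor, had 5.69, 5.80 and 5.59 in HaCaT-PIK3CA and 5.21, 5.12 and 5.14 in HaCaT-Mock, a difference of 0.54. HaCaT-EGFR differed from HaCaT-Mock in NPAS4 by 0.49 under scramble. Under PBS, HaCaT-PIK3CA and HaCaT-Mock differed in it by 0.06. Under siEGFR NPAS4 had 5.42, 5.21 and 5.38 in HaCaT-PIK3CA and 5.40, 5.41 and 5.18 in HaCaT-Mock, where the lines overlapped. The test of that difference between siRNA conditions gave an unadjusted p of 0.00131 and did not pass over all genes (limma over 24 arrays, adjusted p = 1).

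Among the lower genes, PI3, the elastase inhibitor elafin and not a kinase, had 5.98, 5.82 and 6.15 in HaCaT-PIK3CA and 6.80, 6.45 and 6.85 in HaCaT-Mock, a difference of -0.71 (limma over 24 arrays, adjusted p = 0.00694). DKK1, a secreted antagonist of WNT signaling, had 9.30, 9.21 and 9.18 in HaCaT-PIK3CA and 9.74, 9.68 and 9.64 in HaCaT-Mock, a difference of -0.46 (limma over 24 arrays, adjusted p = 0.00167). Neither gene overlapped between the lines, and both passed again under siEGFR. DACT1, an intracellular regulator of the WNT pathway that binds Dishevelled, was lower with a difference of -0.47. C5, the complement component, differed by -0.71.

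EGR1, an immediate-early transcription factor induced through MAPK signaling, had 8.88, 8.81 and 8.41 in HaCaT-PIK3CA and 9.19, 9.18 and 8.97 in HaCaT-Mock. The lines did not overlap, and the difference was -0.41 (limma over 24 arrays, adjusted p = 0.0161). Under siEGFR the EGR1 difference was -0.69 (limma over 24 arrays, adjusted p = 7.67e-05). Under PBS it was -0.14 and did not pass. Other immediate-early and feedback genes of the MAPK list did not pass. The interferon-induced genes OASL and HERC5 differed by -0.32 and -0.36 and passed in both siRNA conditions (limma over 24 arrays). OASL had 7.22, 7.32 and 7.37 in HaCaT-PIK3CA and 7.56, 7.61 and 7.69 in HaCaT-Mock, and HERC5 had 6.32, 6.36 and 6.07 in HaCaT-PIK3CA and 6.68, 6.70 and 6.46 in HaCaT-Mock. PRSS23 and PCSK5, serine proteases of the secretory pathway, differed by -0.36 and -0.35, and SPOCK1, a matrix proteoglycan, by -0.33. TUBA1A, an alpha-tubulin, differed by -0.40 and NQO1, a quinone reductase of the NRF2 response, by -0.22, and both passed under siEGFR. In HaCaT-EGFR, OASL differed from HaCaT-Mock under scramble by -0.21, HERC5 by -0.45, PRSS23 by -0.18, PCSK5 by -0.23 and SPOCK1 by -0.46. TUBA1A differed there by 0.43 and NQO1 by 0.08.

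Some genes missed the threshold in the 89-array fit but had the lowest p among those without overlap and not under the median level. GPR176, an orphan receptor, differed by 0.40 and DPYSL3, a cytoskeletal regulator, by 0.22 (limma over 89 arrays, adjusted p = 0.109 and 0.158). TOX differed by -0.59, PI3 by -0.71, PTBP3, a splicing regulator, by -0.25 and FBXO25, a ubiquitin ligase subunit, by -0.39 (limma over 89 arrays, adjusted p = 0.0724, 0.141, 0.141 and 0.15).

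The pathway lists were described by their counts and medians. Over all 31 lists, 11 of 582 different genes passed in the 24-array fit (1.89%, beside 0.303% of all genes), 6 of them higher, and 21 lists had no such member. The lists were chosen with earlier results known, so nothing is read from that share, and at such a background a list of this size would seldom hold a call. None of the 31 measured components of PI3K, AKT and mTOR signaling passed. Their median difference was 0.03, beside 0.01 for all genes. RPTOR, the scaffold of the mTOR complex that senses nutrients, had 6.60, 6.79 and 6.72 in HaCaT-PIK3CA and 6.18, 6.21 and 6.69 in HaCaT-Mock. SGK1, a kinase related to AKT, had 6.60, 6.82 and 6.59 in HaCaT-PIK3CA and 7.13, 6.90 and 6.89 in HaCaT-Mock. The lines overlapped for RPTOR and not for SGK1. None of 21 FOXO factors and targets passed either, with a median of 0.01.

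For lists with few or no calls, members were also counted at an unadjusted p of 0.05, at which 4.9% of all genes were higher and 4.04% lower in the 24-array fit. Of 17 sterol synthesis genes, 6 (35.3%) were higher at that level and 0 lower, the median was 0.11 and 16 of the 17 differences were positive. INSIG1, which holds the sterol sensor in the endoplasmic reticulum and is itself a target of the factor SREBP2, had 10.08, 9.75 and 9.44 in HaCaT-PIK3CA and 9.57, 9.50 and 9.04 in HaCaT-Mock. Of 12 fatty acid synthesis genes, 5 (41.7%) were higher and 0 lower, with a median of 0.13. FASN, fatty acid synthase, differed by 0.16, SCD, the desaturase that makes monounsaturated fatty acids, by 0.15 and ACSS2, which makes acetyl-CoA from acetate, by 0.21. None of the genes in either list passed after adjustment, and the medians under siEGFR were 0.07 for sterol and 0.10 for fatty acid synthesis. Of 22 ATF4 and amino acid response genes, 6 (27.3%) were higher and 0 lower, with a median of 0.09, and ASNS passed. Of 27 glycolysis and hypoxia genes, 5 were higher and 1 lower with a median of 0.02. The one that passed was ALDOC, the glycolytic enzyme aldolase C, with a difference of 0.35 (limma over 24 arrays, adjusted p = 0.0109). HaCaT-EGFR differed from HaCaT-Mock in ALDOC by 0.52 under scramble.

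Other lists had more members lower than higher at that level. Of 36 interferon response genes, 8 (22.2%) were lower and 1 higher, with a median of -0.04 under scramble and 0.01 under siEGFR. Of 25 TGF-beta and BMP pathway genes, 7 (28%) were lower and 1 higher with a median of -0.05, and none passed. ID2, a transcriptional target of BMP signaling, differed by -0.36. Of 23 WNT and Notch pathway genes, 5 (21.7%) were lower and 0 higher with a median of -0.03, and DKK1 passed. Of 28 proteases and inhibitors, 9 (32.1%) were lower and 3 higher with a median of -0.09, although the member that passed, ADAMTS12, was higher. MMP1, interstitial collagenase, had the most negative difference of that list, -1.20, and this rested on 1 array: it had 4.02, 3.75 and 4.29 in HaCaT-PIK3CA and 7.48, 4.02 and 4.18 in HaCaT-Mock. SERPINB3, a squamous cell serpin, had 5.89, 6.38 and 6.24 in HaCaT-PIK3CA and 7.27, 6.75 and 6.59 in HaCaT-Mock, without overlap, and did not pass.

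In the matrix and basement membrane list, LAMB1 and FBN2 passed among 25 genes, whose median was -0.05. Among 24 simple keratins and mesenchymal genes LCP1 alone passed, with 5 (20.8%) higher and 2 lower at the unadjusted level. None of 15 keratinocyte identity genes passed (median -0.04), with 4 (26.7%) lower and 1 higher at the unadjusted level. PI3 was the single member that passed among 18 cornified envelope genes, of which 4 (22.2%) were lower and 2 higher at that level. The 20 MAPK output and feedback genes had a median of -0.02 with EGR1 as their only call. None of 11 housekeeping genes passed at either threshold, with a median of 0.02.

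**Figure D5:**
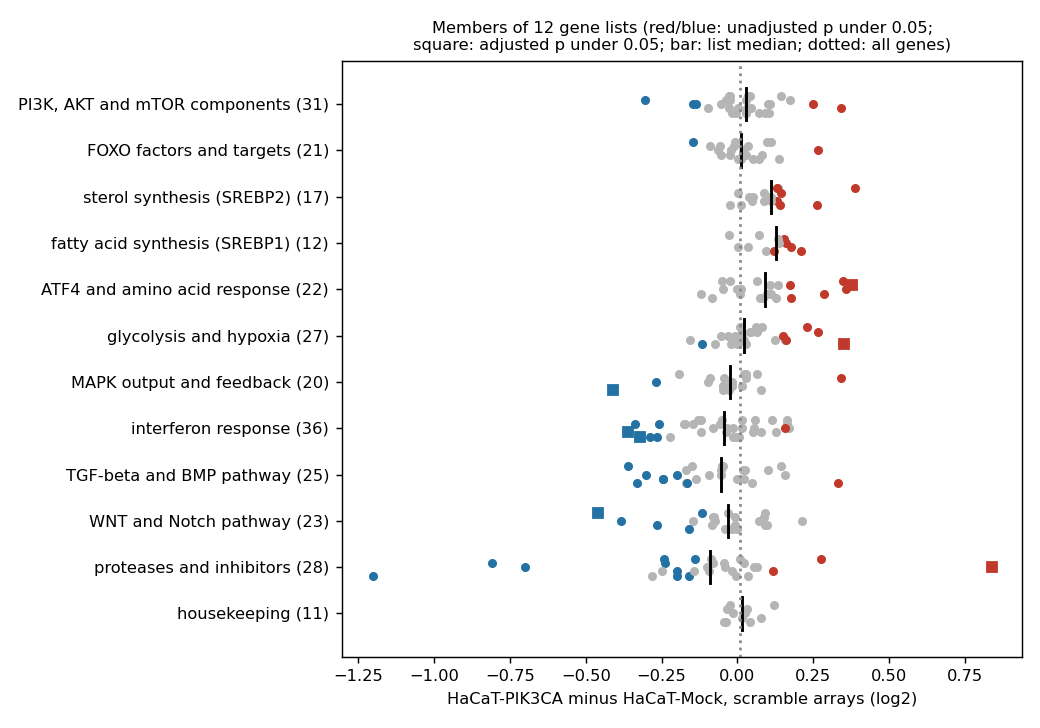
Log2 difference HaCaT-PIK3CA minus HaCaT-Mock under scramble siRNA for the measured members of 12 gene lists (points; number in brackets), with bars at list medians, colour for an unadjusted p under 0.05 and squares for genes that passed in the 24-array fit. Sterol and fatty acid synthesis have medians of 0.11 and 0.13, and most list medians lie near the all-gene median of 0.01.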

How the data were processed

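The 96 arrays were deposited as one table of log2 values for 54675 probe sets. Per the study's methods the authors normalized with frozen RMA, corrected batch effects with pSVA and removed outlier arrays, and the labels name affy, but no source used here says how far the deposited table had been taken through them. The labels name 2 labelling kits without saying which array had which. Probe sets with 1 gene symbol in the platform annotation (41091) were kept, 1801 had several and 11783 none or were controls, and the probe set with the highest mean stood for each of 19775 genes. Line, siRNA, treatment and batch came from the labels.

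Genes were tested with limma 3.58.1 (lmFit and eBayes, R 4.3.3) over the 89 HaCaT construct arrays, with a term per group of line and treatment and a batch term, and Benjamini-Hochberg adjustment over all genes at 0.05. The fit had 47 residual degrees of freedom. The planned 24-array fit had 15, and since the contrast is balanced for batch it gives the same differences with another SE. Alternatives were other sets of arrays, no batch term, array weights, a replicate block, other probe set rules, a filter on low genes, quantile normalization and leaving out each array.

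Genes were named where they passed, reached the median level of all genes and did not overlap between lines, up to 12 in each direction, with up to 3 changed members of each list, and the next by p where a direction had fewer than 5. The members and gene lists were chosen with earlier results of these data known. The test was checked on simulated data. The number of arrays limits the precision.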

Additional observations from a re-analysis of the deposited data

How the results depend on the processing

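The count of changed genes under scramble siRNA depended on the arrays used and on the estimate of the spread. Over the alternatives, the COPZ2 difference ran from -0.46 to -0.26 and that of LAMB1 from 0.47 to 0.79. Against 6 genes in the fit of 89 arrays, the fit of the 6 scramble arrays gave 0 (1161 genes at an unadjusted p of 0.05), the fit without a batch term gave 1, batch J alone gave 1 and array weights, whose estimation stopped short of its tolerance, gave 143. The 24 scramble and siEGFR arrays gave 60, and 59 with a replicate block, of which 54 were among the 60. Leaving out each array gave 2 to 7 genes in the 89-array fit and, added after seeing the data, 9 to 26 in the 24-array fit. The contrast averaged over scramble and siEGFR arrays, added after seeing the data, gave 90 genes over 89 arrays and 329 over 24 arrays, and a fit of the 12 arrays of both lines, added likewise, gave 10. The other settings gave 6 to 8 genes.

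Under siEGFR, 9 genes became 63 over 24 arrays, 68 with the replicate block, 3 in batch J alone and 51 with array weights. The test of the difference between the siRNA conditions gave 0 genes under limma in each setting. Over 61 named genes and their alternatives, 1087 values in all, none changed sign, 178 newly passed and 37 no longer did. The 61 include the 60 genes called in the 24-array fit, and that fit is itself among the alternatives. It gave 54 of the 178, and its replicate block 48, so these follow from the choice of genes. Alternatives that change the spread alone return the same difference, so no sign could change there. The cause of these changes was not tested. The labels do not say that replicate numbers mark a shared day, and array 1 minus array 2 of batch J correlated over genes by 0.17 between the lines under scramble and 0.04 under siEGFR.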

Other observations

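Under siEGFR, 28 genes passed in the 24-array fit that had not passed under scramble, and 27 of them had the same direction under scramble. They were looked at after their values were seen. VIM, the mesenchymal intermediate filament vimentin, had log2 levels of 8.13, 8.10 and 8.13 in HaCaT-PIK3CA and 7.80, 7.71 and 7.78 in HaCaT-Mock, a difference of 0.36 (limma over 24 arrays, adjusted p = 0.0206). Under scramble it differed by 0.19. DDIT4, an inhibitor of mTOR signaling induced by stress, differed by 0.51 under siEGFR and 0.36 under scramble, and DAPK1, a kinase of cell death, by 0.78 and 0.43. PTPRZ1, a receptor tyrosine phosphatase, had 4.80, 4.84 and 4.24 in HaCaT-PIK3CA and 5.74, 6.03 and 5.15 in HaCaT-Mock under siEGFR, a difference of -1.01 that passed over 89 arrays (limma, adjusted p = 0.00507), against -0.55 under scramble. For none of these genes did the test of the difference between the siRNA conditions pass after adjustment over all genes.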
